A study of Drosophila melanogaster with 23 samples.

Results

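The regions described here are stretches of at least 50 bp that lay inside a peak interval in all 18 ChIP-nexus lists of the series, so that each of 6 transcription factors was called there in all 3 of its libraries. The factors are Zelda (Zld) and GAGA factor (GAF), the dorsoventral pair Twist (Twi) and Dorsal (Dl), and the anteroposterior pair Caudal (Cad) and Bicoid (Bcd). There were 4471 such stretches on X, 4 and both arms of chromosomes 2 and 3. They lay in 4065 of the 133075 merged regions covered in at least 1 list (3.05%). The stretches were chosen by the factor intervals themselves. Their number, width, position and factor strength are therefore given as a description with no test, and the histone mark lists are the measurement that the choice did not use.

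All samples were whole wild-type (Oregon-R) Drosophila melanogaster embryos 2 to 3 h after egg laying, taken from population cages and fixed with formaldehyde, with no treatment that differed between groups. In ChIP-nexus, immunoprecipitated fragments are digested by an exonuclease up to the crosslinked protein, and each of the 6 factors had 3 libraries with a custom antibody. The histone marks H3K27ac and H3K4me1 were measured by ChIP-seq in 2 libraries each, while the whole cell extract is not analysed here. The labels do not say that libraries came from separate collections, and whole embryos mix cells of all positions along both body axes, so coverage by all 6 factors says nothing of their presence in the same cell.

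In the embryo at this age the zygotic genome is switched on. Zld, a zinc finger protein, and GAF, which binds GA-rich DNA, are both known for opening chromatin. Bcd and Cad are homeodomain proteins that pattern the axis from head to tail, and Dl, a Rel protein, and Twi, a basic helix-loop-helix protein, pattern the axis from back to belly. H3K27ac is a mark of active promoters and enhancers, and H3K4me1 is found at enhancers. Regions bound by many developmental factors are known in flies as highly occupied target regions.

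Which factor set the limits of the shared regions was read by leaving out 1 factor at a time. Zld covered nearly everything that the other 5 factors shared, and GAF covered the least. Of 4516 stretches in the 15 libraries of the other 5 factors, 4470 (99.0%) were also covered in all 3 Zld libraries, and only 6 (0.133%) were covered in no Zld library. The corresponding shares were 94.3% for Cad, 94.1% for Twi and 92.6% for Bcd. Dl covered 78.7% of 5627 stretches, but only 97 (1.72%) were in no Dl library. For Twi, Cad and Bcd the share in no library was 1.83%, 1.27% and 1.16%. Dl intervals were the narrowest, with list medians of 217 to 228 bp against 254 to 297 bp in the other 15 lists. The part of interval width was not tested. Without GAF the other 5 factors shared 8247 stretches, of which 53.6% were covered in all 3 GAF libraries and 2435 (29.5%) in none. The GAF lists were shorter, with 30281 to 34602 intervals against 45685 to 60625 in the other 15 lists, and the part of list length in this share was not tested.

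**Figure D1:**
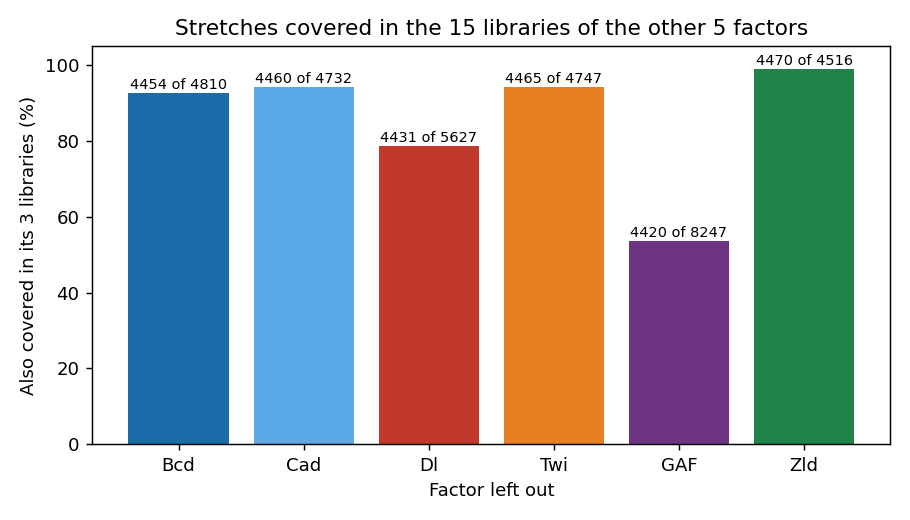
Share of stretches (%, vertical axis) covered in the 15 libraries of 5 factors that was also covered in all 3 libraries of the factor left out (horizontal axis), with the counts above each bar. Zld reached 99.0%, Dl 78.7% and GAF 53.6%.

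Single libraries gave a like order. Each Zld library covered 99.6% to 100% of what the other 17 lists shared, each Twi library 98.7% to 99.7% and each Cad library 98.6% to 99.4%. GAF replicate 1 covered 92.3% and Dl replicate 2 covered 93.1%, the lowest values of the 18 libraries. Among 1769 places where coverage peaked at exactly 17 lists, the missing list was GAF replicate 1 in 343, Dl replicate 2 in 310 and a Zld library in 2, 8 and 12.

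The 2435 stretches that lacked GAF in every library carried the marks about as often as the others by overlap, and somewhat more often by midpoint. H3K27ac of both libraries overlapped 55.9% of them (95% exact binomial interval 53.9% to 57.9%), against 52.9% (51.5% to 54.4%) of the 4420 covered in all 3 GAF libraries. For H3K4me1 the shares were 14.3% (12.9% to 15.7%) and 15.7% (14.7% to 16.8%). The stretches without GAF were narrower, with a median of 181 bp against 249 bp, which lowers overlap. With the midpoint inside the mark, H3K27ac covered 36.7% without GAF and 31.1% with it, and H3K4me1 9.86% and 6.61%. Ends of protein-coding genes were within 500 bp for 40.9% and 38.4%. Intervals here and below cover counting error only, and neighbouring stretches are not independent.

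The shared stretches were short. Their median width was 198 bp, with 25% under 141.5 bp and 5% above 464 bp, and 135 (3.02%) were wider than 500 bp. In all they covered 1004 kb, 0.75% of the arms and 1.77% of the 56.7 Mb covered in at least 1 list. At the lower limit of the rule, 93 stretches of 50 to 59 bp were counted and 94 of 40 to 49 bp were not. H3K27ac of both libraries overlapped 44.1% of the first group and 34.0% of the second. A single list interval could hold several stretches: 374 merged regions held 2 or 3.

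**Figure D2:**
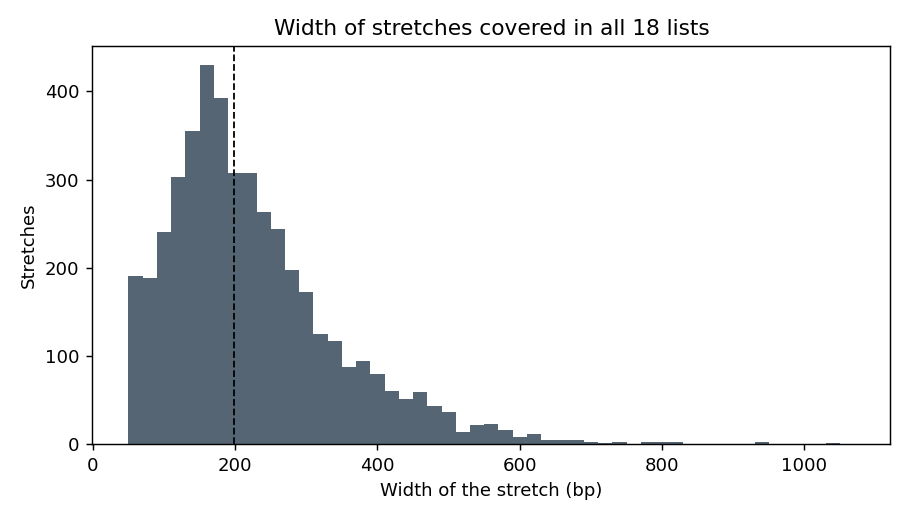
Number of stretches (vertical axis) by width in bp (horizontal axis, bins of 20 bp). The dashed line marks the median of 198 bp, and the longest reached 1049 bp.

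The widest stretch, 2R:1825669-1826717 (1049 bp, build dm6, counted from 1 as all coordinates here), lay 39363 bp from the nearest protein-coding gene, CG17684. The next were 3L:2438443-2439379 (937 bp), in Svil, a supervillin gene, and 2L:23512744-23513675 (932 bp), whose nearest protein-coding gene, Tim23, was 199166 bp away. Several of the 10 widest lay at developmental transcription factor genes. These were salm (826 bp, 2L:11445536-11446361) and disco (825 bp, X:16216641-16217465), which encode zinc finger proteins, and grh (802 bp, 2R:17801473-17802274), which encodes Grainyhead, a regulator of epidermis. The others were at CG34214 and CG4806 (801 bp), on X with ATbp as the nearest gene (773 bp), at Csp, a synaptic vesicle chaperone (770 bp), and at toc (747 bp).

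How strong the stretches were in each list was read from the percentile, within its own list, of the strongest interval over the stretch, ranked by the authors' −log10 p. These values come from the lists that chose the stretches and are a description. Zld intervals over the stretches stood highest, with a median percentile of 91.4 ± 0.586 (SD over libraries, n = 3). Dl followed at 88.5 ± 1.1, Twi at 87.8 ± 1.11, Bcd at 87.1 ± 1.75 and Cad at 86.9 ± 1.15, and the library values of these 4 overlapped. GAF was lowest at 75.9 ± 2.45, below every library of the other factors. On average over libraries, 19.1% of the stretches were below the median of the GAF list and 0.701% below that of the Zld list. Percentiles from lists of different lengths are not on 1 scale, so the order of factors at a stretch describes these lists only. By percentile GAF was the weakest of the 6 factors at 2017 stretches (45.1%) and the strongest at 899 (20.1%), while Zld was the weakest at 61 (1.36%) and the strongest at 1065 (23.8%). By the authors' fold enrichment the order was another, with library medians over the stretches of 11.8 ± 0.404 for GAF, 7.42 ± 0.514 for Twi, 7.2 ± 0.887 for Zld and 3.37 ± 0.248 for Dl (SD, n = 3). The 1000 strongest GAF intervals lay over a shared stretch in 64.4% ± 3.72 (SD, n = 3), against 51.0% ± 1.04 for Zld. The patterning factors had 31.2% ± 1.17 (Dl), 33.2% ± 0.907 (Bcd), 42.2% ± 0.529 (Cad) and 44.9% ± 0.436 (Twi). Over all intervals of a list the mean shares were 13.5% for GAF, 8.01% for Zld and 7.55% to 8.31% for the patterning factors. The GAF lists were shorter, so 1000 intervals are a larger part of them, and the shares are not on 1 scale.

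**Figure D3:**
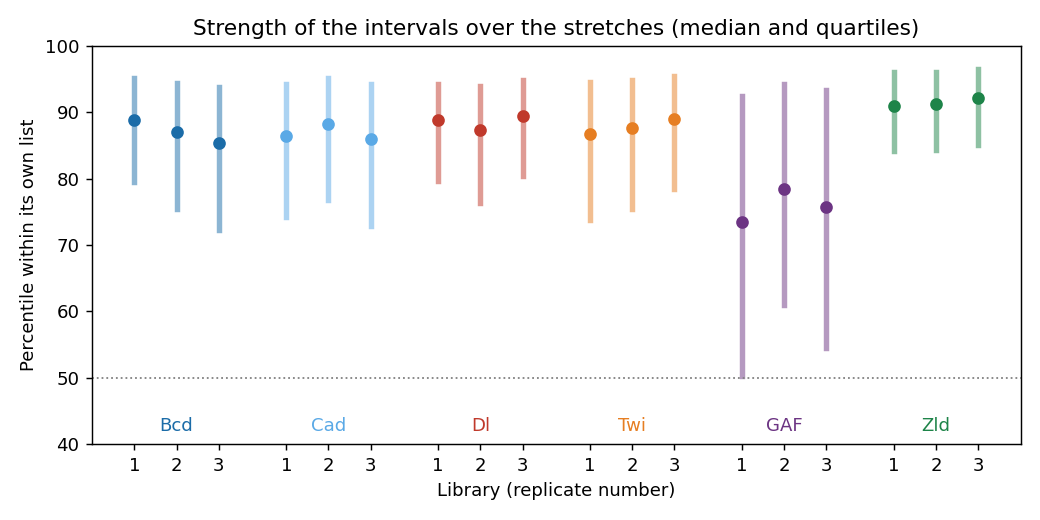
Percentile within its own list (vertical axis, 100 is strongest) of the strongest interval over each of the 4471 stretches, for the 18 libraries (horizontal axis, by factor and replicate). Points are medians and bars run between the quartiles, the GAF medians lying between 73.5 and 78.4 and the Zld medians between 91.0 and 92.1.

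GAF also stood apart in how strengths went together across stretches. Spearman's rho over the 4471 stretches was highest, at 0.60, between Dl and Zld, with 0.53 between Bcd and Dl and 0.51 between Bcd and Cad. The lowest pairs without GAF all held Twi, with 0.31 for Bcd, 0.32 for Zld and 0.38 for Cad. For GAF with each of the other 5 rho was between −0.01 and 0.17. These correlations are across stretches, which share libraries and are not replicates. Summits of the other factors lay close to the Zld summit, at median distances of 41 bp for Cad, 42 bp for Bcd and for Dl and 45 bp for Twi. GAF summits were 58 bp from Zld, 71 bp from Dl, 77 bp from Twi, 80 bp from Bcd and 81 bp from Cad. Pairs among Bcd, Cad, Dl and Twi ranged from 46 bp (Bcd with Cad) to 58 bp (Bcd with Twi), the latter equal to GAF with Zld. All 6 summits spanned a median of 190 bp.

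The stretches that ranked highest over all 18 lists were mostly not at patterning genes. The first, 3R:3169782-3170444 (663 bp), lay in Pzl, a Piezo-like channel gene near the centromere, and outside both marks. The authors' fold enrichment there was 30.0, 30.4 and 29.3 for Bcd, 27.4, 26.0 and 28.0 for Cad, 29.8, 30.2 and 30.8 for Dl, 28.8, 29.7 and 29.5 for Twi, 37.2, 36.3 and 30.3 for GAF and 29.5, 29.4 and 29.1 for Zld. It thus varied little between factors and ranked 3rd to 71st in the lists. The wide stretch near CG17684 behaved likewise, with folds of 18.2 to 23.6 in the 18 libraries, and that near Tim23 had 18.3 to 23.8. At X:22432940-22433266 (327 bp, nearest gene CG14621) the folds ran from 46.7 to 55.1 in all 18 libraries, with ranks from 3 to 40 in the 15 lists of the other factors and 1899, 2554 and 589 in the GAF lists. These were chosen as the highest ranking, and folds are the authors' own values, each relative to its own library.

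Other stretches among the 10 highest were uneven across factors. At 2R:21047962-21048502 (541 bp), near shg, which encodes the cell adhesion protein E-cadherin, the fold was 25.7, 25.8 and 25.4 for Twi and 29.9, 27.5 and 27 for GAF. For Dl it was 7.1, 5.77 and 6.06. That stretch lay inside both H3K27ac and H3K4me1. At 3L:9461887-9462099 (213 bp, CG44838) Cad reached 33.1, 36.6 and 33.7, against 6.27, 7.72 and 6.63 for Bcd, the other homeodomain protein. The remaining ones were near DIP-lambda (2R:748674-748965), CG46302 (2R:870162-870565), CG12581 (3R:4174331-4174785) and the histone gene His3:CG33866 (2L:21540937-21541324). Ranked by the lowest of their 6 factor percentiles, the first 5 were the stretches at Pzl, CG17684, Tim23, DIP-lambda and CG44838.

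H3K27ac lay over about 50% of the shared stretches, far more often than over places covered in fewer lists. Intervals of both H3K27ac libraries overlapped 2273 of the 4471 stretches, or 50.8% (49.4% to 52.3%). The background, taken over 163749 places where the number of covering lists was locally highest at 1 to 17, was 9.38%. Most of these places, 115636, were in 1 to 5 lists. Replicate 1 alone overlapped 53.3% and replicate 2 alone 53.0%. H3K4me1 in both libraries overlapped 13.7% (12.7% to 14.7%) against a background of 1.55%. Its libraries differed, with 40.1% in replicate 1 and 18.4% in replicate 2, and their lists held 13403 and 6546 intervals. Asking for the midpoint of the stretch inside the mark, which depends less on width, gave 32.3% for H3K27ac and 6.37% (5.68% to 7.13%) for H3K4me1. All places covered in fewer lists had 7.64% and 1.16%. By midpoint the excess was not seen against places in 15 lists, which had 32.6% for H3K27ac and 7.76% (6.94% to 8.65%) for H3K4me1. Those in 17 had 30.8% and 5.31%. Stretches are not replicates and each mark had 2 libraries, so the shares are given per library and with no p.

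The H3K27ac share was mostly larger with more lists, with steps out of order at 3 and at 15 lists. H3K27ac covered 3.24% of places reached by 1 list, 6.44% at 3, 5.87% at 4, 31.6% at 14, 46.5% at 15, 37.1% at 16, 39.6% at 17 and 50.8% at 18. Of the 3903 places at 15 lists, 2431 (62.3%) lacked exactly the 3 GAF libraries. By midpoint the shares at 15, 17 and 18 lists were 32.6%, 30.8% and 32.3%. The step from 17 to 18 lists was thus smaller by midpoint than by overlap, and its midpoint intervals, 28.7% to 33.0% and 30.9% to 33.6%, overlapped.

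**Figure D4:**
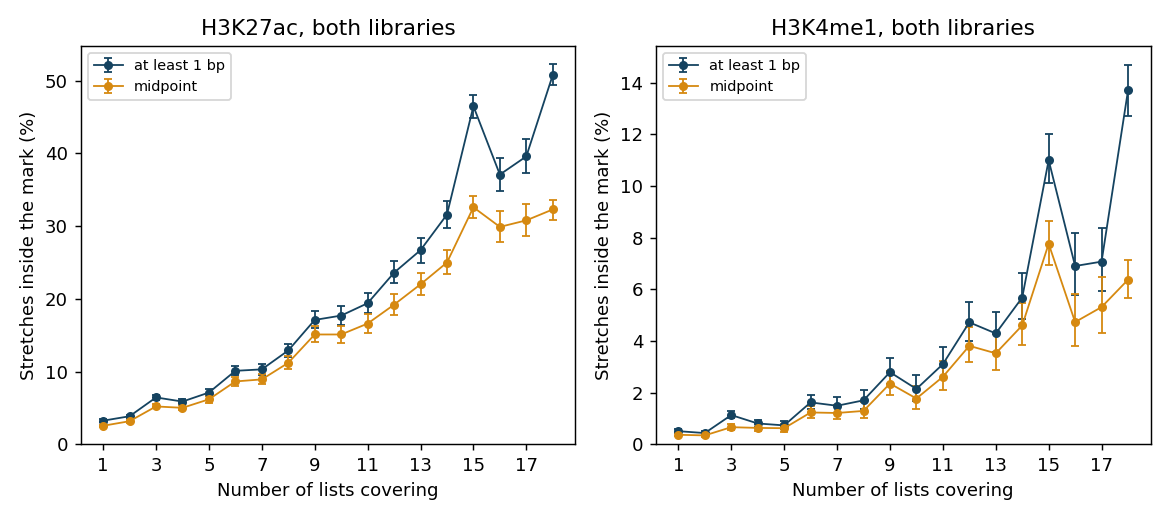
Share (%, vertical axes) of stretches inside H3K27ac (left) or H3K4me1 (right) of both libraries, against the number of ChIP-nexus lists covering them (horizontal axes), counted by an overlap of at least 1 bp or by the midpoint. Bars are 95% exact binomial intervals, and the H3K27ac overlap rises from 3.24% at 1 list to 50.8% at 18, with 46.5% at 15.

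Read from the marks, the strongest acetylated intervals mostly held a shared stretch. Of the strongest 1% of H3K27ac intervals, 79.6% in replicate 1 and 74.1% in replicate 2 overlapped at least 1 stretch, against 3.04% and 3.52% of the weaker 50%. The strong intervals were also longer, with a median of 4001 bp against 275 bp in replicate 1. Intervals holding 0, 1, 2 and 3 or more stretches had median percentiles of 43.3, 79.9, 89.8 and 95.9 in that replicate. H3K4me1 intervals held a stretch in 13.5% of cases in replicate 1 and 13.6% in replicate 2. The strongest 1% were near that, at 18.8% and 13.3%, and the strongest 10% above it, at 41.6% and 26.1%.

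The stretches divided into 415 (9.28%) inside both marks, 1858 (41.6%) inside H3K27ac alone, 196 (4.38%) inside H3K4me1 alone and 2002 (44.8%) inside neither mark in both libraries. Those inside both marks had median percentiles of 94.3 for Bcd, 94.4 for Dl and 95.7 for Zld, and those inside neither 83.0, 82.9 and 88.6. GAF again differed, with 78.5 and 76.9. No interval of any of the 4 mark libraries touched 1358 stretches (30.4%). Of the 2198 outside H3K27ac, 538 (24.5%) were within 500 bp of it.

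Stretches lay near gene ends more often than places covered in fewer lists, but by little against those in 15 lists. Acetylation differed with position. A protein-coding gene began or ended within 500 bp of the midpoint of 1718 stretches (38.4%, 37.0% to 39.9%), against a background of 15.2%. Places in 15 lists had 36.6% (35.1% to 38.1%), those in 16 had 32.8% and those in 17 had 34.2%. The gene table gives no strand, so starts and stops of genes cannot be told apart. H3K27ac covered 70.0% of the 1718 stretches near an end, 47.1% of the 1799 inside genes and farther away, and 23.3% of the 954 between genes. Among places covered in 1 to 17 lists the 3 values were 28.3%, 7.06% and 3.88%. H3K4me1 ran in another order, with 10.8%, 17.7% and 11.2%. The X had the lowest H3K27ac share of the 6 arms, 44.8% against 48.8% to 56.0%, and the lowest share near gene ends, 33.0% against 38.6% to 40.5%. It also had the most stretches per Mb, 36.8 against 30.4 to 34.8.

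Acetylated stretches were by overlap more frequent where Zld, Twi, Bcd, Cad or Dl was stronger, but not where GAF was. When the stretches were ordered by Zld percentile and divided into 4 groups of 1117 or 1118, H3K27ac covered 34.1%, 47.6%, 54.8% and 66.9% from weakest to strongest. With Twi the lowest and highest groups had 31.1% and 65.0%, with Bcd 35.7% and 62.5%, with Cad 33.6% and 61.6% and with Dl 33.3% and 62.3%. With GAF the 4 values were 52.0%, 53.3%, 50.3% and 47.8%. Width rose with strength too, from a median of 143 to 274 bp for Zld and from 156 to 251 bp for GAF, and its part was not tested. By midpoint the Zld groups had 26.3%, 33.0%, 33.7% and 36.0%, and the GAF groups 37.9%, 35.4%, 31.4% and 24.2%. For Twi the midpoint values were 23.2%, 34.2%, 34.4% and 37.3% and for Bcd 27%, 31.8%, 34.6% and 35.6%. For Cad (23.9%, 35.7%, 35.8% and 33.6%) and Dl (25.0%, 36.4%, 36.2% and 31.4%) they were lower in the strongest group than in the one before it.

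Behind the flat GAF values the overlap with H3K27ac ran in opposite directions near to and far from gene ends. Near gene ends, H3K27ac covered 82.7% (79.0% to 86.0%) of the 479 stretches weakest in GAF and 52.8% (47.8% to 57.7%) of the 413 strongest. Far from gene ends it covered 29.0% (25.5% to 32.6%) of the weakest and 44.8% (41.1% to 48.6%) of the strongest. By midpoint the fall near gene ends was from 62.2% to 28.6%, while the far values were 19.7%, 23.3%, 23.4% and 21.7%. Each H3K27ac library by itself gave the fall, from 84.1% to 53.8% and from 84.6% to 55.0%. For Zld both shares were higher in the strongest group, from 62.3% to 75% near gene ends and from 23.3% to 58.7% farther away. By midpoint near gene ends, however, all 6 factors had a lower share in the strongest group than in the third. From weakest to strongest these shares were 49.7% and 45.7% for Zld, 48.2% and 44.5% for Twi, 47.6% and 44.3% for Bcd, 42.3% and 42% for Cad, and 52.0% and 34.1% for Dl. The far stretches strongest in Twi were acetylated in 61.4%, and those weakest in Twi in 15.5%. The difference between these courses was not tested.

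**Figure D5:**
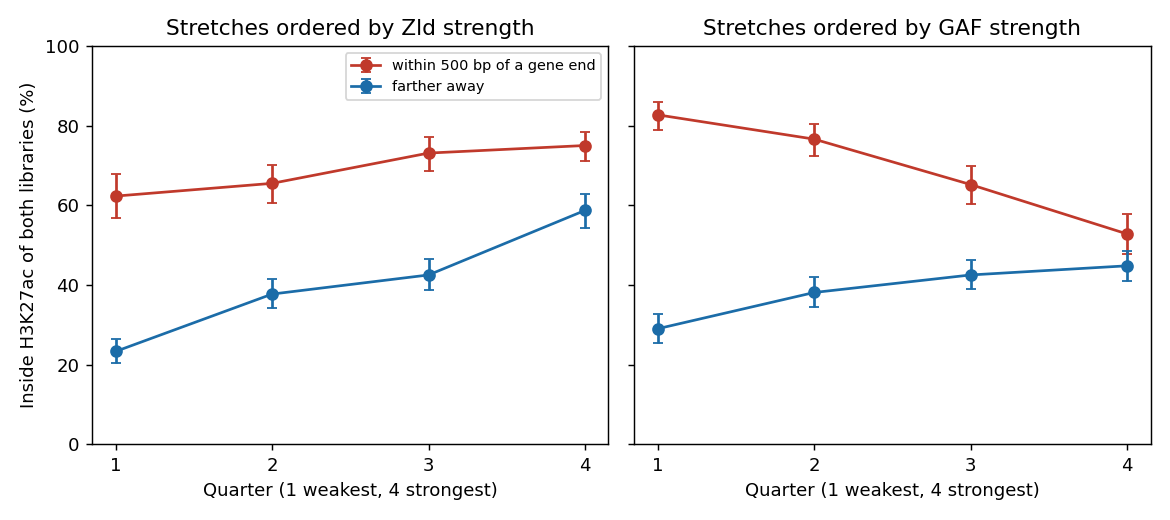
Share of stretches inside H3K27ac of both libraries (%, vertical axis) for the stretches ordered by Zld (left) or GAF (right) percentile and divided into 4 groups (horizontal axis, weakest to strongest), within 500 bp of a protein-coding gene end and farther away. Bars are 95% exact binomial intervals, and near gene ends the share falls from 82.7% to 52.8% with GAF.

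The genes close to shared stretches were read from lists chosen with earlier results of these data known. At least 1 stretch lay within 10 kb of 59.4% of the 13911 protein-coding genes on the arms, and 3 or more lay within 10 kb of 11.9%. All 8 Hox genes, which give segments their identity, had 3 or more. They are long genes, with a median of 30.6 kb against 2.16 kb for all genes, which widens the window. Antp had 9 stretches, Ubx and Abd-B 7 each, lab and abd-A 4 each, and pb, Dfd and Scr 3 each. Most were unacetylated: H3K27ac of both libraries covered 1 of 9 at Antp, 3 of 7 at Ubx and 0 of 7 at Abd-B. The strongest at Antp, 3R:7000651-7001249 (599 bp), had percentiles of 94.3 for Bcd, 99.3 for Cad, 95 for Dl, 99.3 for Twi, 99.1 for GAF and 98.6 for Zld.

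Among the genes of the dorsoventral axis, 36 of 38 had a stretch within 10 kb and 14 had 3 or more. These genes are also long, with a median of 13.7 kb against 2.16 kb for all genes. The gene zen, a homeobox gene of the dorsal side, had 5 stretches, all acetylated, which are at the same time the 5 stretches within 10 kb of its neighbour bcd. The others with 5 were ush, stumps and T48, with 0, 1 and 3 acetylated. The gene aos, a secreted inhibitor of the Egf receptor, had 4. There were 3 each at brk, NetA, sog, sna, spi, Mef2, sim, htl and pnt. The gene brk, which encodes a repressor of Dpp targets, had within 10 kb the stretch X:7320659-7321197 (539 bp), with percentiles of 100 for Twi and 99.8 for Dl and an overlap with H3K27ac. Near sna, the mesoderm repressor gene, 2L:15485769-15486027 (259 bp) stood at 99.9 for Twi and 99.5 for Dl but 56.8 for GAF.

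Among the other genes of the head-to-tail axis, a stretch lay within 10 kb of 10 of 16 gap and terminal genes (62.5%), near the share of all genes. It did so for 14 of 18 pair-rule and segment polarity genes (77.8%), and 2 and 4 genes of these lists had 3 or more. These were knrl with 3 and cad with 4, then ptc, the Hedgehog receptor gene, with 6 (5 acetylated), and wg, Ten-m and ftz with 3 each. At ptc the stretch 2R:8649332-8649887 (556 bp), 39 bp from a gene end, had percentiles of 99.9 for GAF and 98.0 for Zld. Of the early zygotic and cellularization genes, 14 of 18 had a stretch, and spri had 5, nullo 4, and CG14427, amos, term and Sry-alpha 3 each. The widest stretch near nullo and near CG14427 is the same, X:7049118-7049388, so their counts overlap. Over these 5 lists, 82 of 98 genes (83.7%) had a stretch within 10 kb and 34 had 3 or more.

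The genes of the mapped factors themselves differed. Zld's own gene, zld, had 5 stretches and Trl, which encodes GAF, had 4, and all 9 were acetylated. The gene bcd had the 5 shared with zen, cad had 4 with 1 acetylated, and twi had 2, both acetylated. No stretch lay within 10 kb of dl. In the whole list of these factors and their cofactors 8 of 9 genes had a stretch and 4 had 3 or more.

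Several classic targets had none, and the factor that was missing differed among them. Of 118 listed genes in the hand-made lists, 18 had no stretch within 10 kb. That is a smaller share than among all 13911 protein-coding genes, of which 8268 (59.4%) had a stretch. At 6 of the 18 genes, eve, Kr, kni, slp2, Z600 and bnk, the best covered place was in all 15 libraries of the other 5 factors and in no GAF library. They include the stripe gene eve (2R:9977079-9977841, 763 bp) and the gap gene Kr (2R:25222765-25223389, 625 bp), both inside H3K27ac. Of all 8247 stretches shared by the other 5 factors, which include those with GAF, 29.5% were in no GAF library. Of the 3903 places at 15 lists, the closer comparison, 62.3% lacked all 3 GAF libraries. Such places also lay within 10 kb of genes that had shared stretches, with 7 at Scr and 4 at Antp. At hb, nub, dpp, run, ths, trbl and Hsp83 the best covered place was in 17 lists, at D, croc and prd in 16, at wor in 14 and at dl in 10. There Dl was in 2 libraries at hb, nub and dpp and in 1 at croc, wor and dl. At wor and dl other factors were incomplete too. These genes were singled out after their values were seen.

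Of the lists outside patterning, those of cuticle proteins and neuronal receptors were below the share of all genes. Their genes are shorter, with medians of 0.88 and 1.5 kb against 2.16 kb, as are ribosomal protein genes (1.33 kb). The part of gene length was not tested. Ribosomal protein genes, which are active in every cell, had a stretch within 10 kb in 70 of 92 cases (76.1%), 18 with 3 or more, led by RpS20 with 5. Genes of cuticle proteins, which are made later in development, had one in 27 of 95 (28.4%), with 3 or more at Edg91 alone. The neuronal receptor list also holds the Obp genes, which encode odorant-binding proteins and not receptors. Its genes had a stretch in 98 of 230 cases (42.6%), and 10 had 3 or more, among them Gr5a, Ir60b, Ir60d and Ir68b with 4. The 4 at Ir60b and Ir60d are the same stretches, and 3 of those at Gr5a are also near RpL35. Within 2 kb, cuticle genes fell to 6.32% against 30.9% of all genes and 51.1% of ribosomal protein genes. Of the heat shock genes 11 of 12 had a stretch, and 6 had 3 or more: Hsp70Aa, Hsp70Ab, Hsp70Bbb and Hsp70Bb with 4 and Hsp70Bc and Hsp68 with 3. The stretches are shared: those at Hsp70Aa and Hsp70Ab are the same 4, those at Hsp70Bbb and Hsp70Bb are the same 4, and the 3 at Hsp70Bc are among the latter. At Hsp70Bc the stretch 3R:12508887-12509170 (284 bp), 47 bp from a gene end, had a GAF percentile of 99.8 and a Bcd percentile of 84.7. The Hsp70 genes are near-identical copies, so the assignment of reads among them is uncertain.

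The genes with the most stretches were of a different kind. Myo81F, a myosin gene, had 41, Pzl 17 and DIP-lambda 16, and all are very long genes near a centromere, of 1966, 709 and 379 kb. Of the 73 stretches inside these genes 2 (2.74%) were acetylated. Next were the cell cycle regulator E2f1 with 12, InR, the insulin receptor gene, with 10, and MSAmiP with 10. E2f1 and InR are neighbours whose 10 kb windows overlap, and 1 run of 13 stretches lay over both, so their counts may share stretches. Then 9 each lay at Imp, Raf, pros, Antp, pyd, Eip75B, jing, mgl and CG32816. Acetylation differed among them, with 9 of 9 stretches at jing, 8 of 9 at pyd and 7 of 9 at Raf inside H3K27ac, but 0 of 9 at Eip75B and 0 of 10 at InR.

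Along the arms the stretches were spaced unevenly, slightly more so than places at any other single number of lists. The median distance between midpoints of nearest neighbours was 7330 bp, and 59.8% had a neighbour within 10 kb. That distance was 0.245 of the mean spacing. The ratio was 0.265 for places in 15 lists, 0.293 for those in 17 and 0.25 for all those in 12 to 16. Its highest value at a single number of lists was 0.325, at 3 lists, and for all places in 1 to 17 it was 0.522. Of 1342 windows of 100 kb, 145 held none, the median was 3 and the highest 39. The 10% of windows richest in stretches held 25.9% of them. For places covered in 1 to 17 lists the 10% richest windows held 11.9%. The sets differ in size, 4471 against 163749, which was not allowed for. Joining stretches no more than 10 kb apart gave 2795 runs, of which 1798 were single stretches and 53 held 5 or more. H3K27ac covered 42.9% of single stretches, 57.3% of those in runs of 2 to 4 and 48.9% of those in runs of 5 or more.

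The longest runs lay in gene-poor or repeated DNA. The first, 2L:22408280-22477401, held 36 stretches with a median spacing of 1395 bp, no annotated gene and none in H3K27ac or H3K4me1 of both libraries, and the nearest protein-coding gene, Marf1, was 39.5 kb away. The next, X:23205873-23282789, held 20 with no protein-coding gene, and 7 of the 18 annotated rRNA pseudogenes carried a stretch, all outside H3K27ac. Its median percentiles were 99.4 for Dl and 50.5 for GAF. The run 2L:21454068-21541324 held 19 over the histone gene array, where 86 histone genes repeat and the median spacing was 5044.5 bp. It was strong in Dl (99.5), Cad (97.3) and Bcd (97.1) and also in GAF (94.7). Runs of 9 (X:23455393-23483280) and 8 (2L:22488087-22514765) stretches also held no protein-coding gene, and none of their stretches was acetylated. How reads matching several copies were placed is not given in the sources used here, so values in these runs are uncertain.

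Other runs lay over genes. At InR and E2f1 the run 3R:21589912-21642070 held 13 stretches, 4 of them acetylated. At the Hsp70Ba to Hsp70Bc genes 3R:12467728-12509170 held 9, none acetylated, with a median GAF percentile of 99.6. The run 3R:16848658-16900027, at MSAmiP between abd-A and Abd-B, held 9, with medians of 97.7 for Cad and 75.7 for GAF. A run of 7 lay at robo2, an axon guidance receptor gene (2L:1404866-1429949), with all 7 acetylated, and others of 7 lay at Raf and Ilp6, at tara, at puc and at Galphao (2R:10418027-10438181), with 6, 6, 4 and 6 acetylated. A run of 8, with 7 acetylated, lay at Tmf and Cht11 (X:6843813-6876073).

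Stretches far from genes were rarely acetylated. Of the 286 (6.40%) that lay over 20 kb from a protein-coding gene, 8.04% were inside H3K27ac, against 53.8% of the other 4185. Their median percentiles were 87.3 for Bcd and 88.4 for Zld, close to the 86.8 and 91.4 of the others, while Twi stood at 75.1 against 88.2 and GAF at 65.2 against 76.9. Short RNA genes were also touched. Of 32 genes of snRNAs, the RNA parts of the splicing machinery, 15 (46.9%) overlapped a stretch, although their median length is 154 bp, against 17.7% of protein-coding genes and 6.55% of 290 tRNA genes. Over the snRNA genes the median percentiles were 94.3 for Dl, 93.0 for Cad and 51.2 for GAF, and 2 of the 15 stretches were acetylated. Many snRNA genes are near-identical copies and share the doubt on read placement.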

How the data were processed

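The authors deposited a narrowPeak list for every library, with no header line. Per the submitters' processing notes, the build is dm6 and the tools include cutadapt 2.5, Bowtie2 2.3.5.1 and MACS2 2.2.7.1; their roles and settings are not given there. The deposited columns used are a score, a fold enrichment (a ratio) and the −log10 of the p-value and q-value, all the authors' own. The lists hold no counts and the depth is unknown, so precision is given only as exact (Clopper-Pearson) 95% intervals of shares. Groups and replicate numbers follow the titles; the GAF and Zld lists are numbered differently, so those numbers are uncertain.

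Coverage was counted base by base over all deposited lines, with Python 3.11.15, numpy 2.4.6, pandas 2.3.3 and scipy 1.17.1, and the computation was tested on simulated data. Genes came from the RefSeq table of Release 6, the same build, which held 17673 genes on the arms. Of the listed names, h, mist, sry-alpha and frs were matched through synonyms (hry, mthl1, Sry-alpha and Z600). A mark was called where intervals of both libraries overlapped a stretch by at least 1 bp. Percentiles rank a list by −log10 p, ties by fold. The members, gene lists and rules were chosen with earlier results of these data known. Named are the 10 widest stretches, the 10 highest by mean percentile, the 5 with the highest lowest factor percentile, the 10 genes with the most stretches (ties included), the largest runs, and listed genes with 3 or more stretches within 10 kb; of the ribosomal protein and neuronal receptor genes only the leading ones are named. A planned search for sequence motifs was not run, since no genome sequence was used here.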

Additional observations from a re-analysis of the deposited data

Results flagged for a closer look

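Stretches covered in all 18 lists also occurred outside the arms to which the rule applies. There were 1333 on 773 other sequences, mostly unplaced scaffolds. The Y chromosome held 112 of them. The mitochondrial genome held 13. They are outside the report's comparisons, and no control sample was analysed here.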

How the results depend on the processing

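Of 186 recomputed values 145 moved by less than their interval or 1.5 times. A minimum width of 1 bp gave a median width of 187 bp and 63.4% with a neighbour, and one of 100 bp gave 214 bp and 56.7%. For factor intervals from a −log10 q of 5 up the width was 217 bp, H3K27ac 53.8%, H3K4me1 14.9% and neighbours 57.7%. From 10 up there were 2293 stretches, with a width of 266 bp, H3K27ac of 59.6%, H3K4me1 of 19.3%, neighbours of 45.6% and gene ends of 41.9%. With 2 of 3 libraries of every factor there were 7076, in the same order with 216 bp, 46.5%, 11.9%, 70.7% and 36.1%. H3K27ac and H3K4me1 were 32.3% and 6.37% by midpoint, 34.4% and 6.28% with at least 50% of the stretch inside, 55.4% and 44.9% in either library, and 49% and 7.83% for mark intervals from a −log10 q of 5 up. Gene ends within 250 and 1000 bp gave 31.2% and 47.7%, and neighbours within 5 and 20 kb gave 38.1% and 80.2%. Leaving out stretches over 20 kb from a gene, chosen after seeing the data, gave 53.8% for H3K27ac and 41.1% near gene ends. Leaving out each library in turn gave 4473 to 4825 stretches, widths of 196 to 201 bp, H3K27ac of 49.1% to 53.3%, gene ends of 37.4% to 38.9%, neighbours of 59.8% to 61.9% and 82 to 84 patterning genes. H3K4me1 ran from 13.1% to 40.1%, the highest without H3K4me1 replicate 2, whose list is the shorter, and 18.4% without replicate 1. The cause of the other moves was not tested. No paired analysis was possible because no result comes from a test. The lists hold no reads, so a stretch missing from a list was not detectable at that library's depth, not shown to be unbound.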

Other observations

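Sorted by the factor with the highest percentile, the shared stretches differed in place and acetylation. Gene ends were within 500 bp of 55.4% of the 1065 led by Zld, 44.3% of the 451 led by Dl, 32.7% of the 899 led by GAF and 28.9% of the 615 led by Cad. H3K27ac of both libraries covered 58.2% (95% exact binomial interval 54.8% to 61.6%) of the 830 led by Twi, 56.0% (52.9% to 59%) of those led by Zld, 44.1% (39.5% to 48.8%) of those led by Dl and 39.0% (35.8% to 42.3%) of those led by GAF. Among the 2017 stretches where GAF was the weakest factor, 61.5% were acetylated. These groups were formed from the factor lists, and their differences were not tested.

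Among the other short RNA genes, 4 of 260 miRNA genes and 7 of 269 snoRNA genes overlapped a stretch. Of the 4 stretches at miRNA genes 3 were inside H3K27ac, and their median GAF percentile was 93.6. At the 18 stretches over tRNA genes the medians were 89.5 for Dl and 66.8 for Twi, and 1 was inside H3K27ac.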
